A study of Mus musculus with 10 samples.

Results

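The circadian clock genes examined here were Arntl, Clock, Per1, Per2, Per3, Cry1, Cry2, Dbp, Nr1d1 and Nr1d2. They were taken by symbol alone from the deposited table, where each matched 1 row, so that they make up 10 of 56748 genes. All 10 were tested among 14270 genes that passed a filter on low counts. RNA-seq covered inguinal stromal vascular cells from male mice 6 to 8 weeks old, put through adipogenic differentiation for 6 to 8 days to give primary adipocytes. The 5 control cultures carried Fam20c-flox without Cre, and the 5 KO cultures carried Fam20c-flox/Adipoq-Cre. Both groups thus carried the floxed allele, and the Cre is driven by the adiponectin promoter, which is active in adipocytes and not in the other cells of such a culture. Differentiation began with 3-isobutyl-1-methylxanthine, dexamethasone, insulin and rosiglitazone, and the 2 inducers first named were then withdrawn. The sources used here give neither the hour of harvest nor a harvest batch, and they do not say whether cultures of a group came from separate mice, so that p-values measure the spread between these libraries only.

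The mammalian clock is a loop of transcription and translation. ARNTL (also called BMAL1) and CLOCK form a heterodimer that binds E-box DNA and drives the Per and Cry genes, whose proteins then inhibit the dimer. The same dimer drives Nr1d1 and Nr1d2, which encode the nuclear receptors REV-ERB alpha and REV-ERB beta, repressors that bind ROR response elements and hold down Arntl. It also drives Dbp, a PAR-bZIP activator that binds D-boxes in output genes. Cultured cells keep this rhythm, and dexamethasone, serum and agents that raise cyclic AMP reset it, since Per1 is induced directly by the glucocorticoid receptor and by cyclic AMP. Transcripts of the Per, Nr1d and Dbp genes peak in a phase nearly opposite to that of Arntl, so that cultures taken at different phases differ in these transcripts.

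The DNA elements of this loop stand in the promoters of several members. In the RefSeq promoters of GRCm38.p6, taken from 250 bases before to 50 bases after each annotated start, 9 of the 10 members had an entry, some with more than 1 start. The sequences below are shown because these elements link the members whose transcripts are compared. They run 5′ to 3′ on the strand of the gene, and capitals mark the element, searched on both strands.
Per1, E-box CACGTG, chr11:69098771-69098800, plus strand: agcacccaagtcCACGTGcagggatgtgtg
Cry1, E-box CACGTG, chr10:85185097-85185126, minus strand: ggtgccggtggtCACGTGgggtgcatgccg
Cry2, E′-box CACGTT read on the other strand, chr2:92434218-92434247, minus strand: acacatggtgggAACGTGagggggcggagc
Nr1d1, E′-box CACGTT read on the other strand, chr11:98775388-98775417, minus strand: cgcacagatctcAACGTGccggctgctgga
Per3, D-box TTATGTAA, chr4:151044852-151044881, minus strand: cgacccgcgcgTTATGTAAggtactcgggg
Per3, another D-box TTATGTAA, chr4:151044805-151044834, minus strand: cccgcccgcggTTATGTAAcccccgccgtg
Arntl, ROR element TAGGTCA, chr7:113207530-113207558, plus strand: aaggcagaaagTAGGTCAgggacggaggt
Among all 32841 promoters of this length, CACGTG stood in 7.15%, CACGTT in 4.69%, a D-box (TTATGTAA or TTACGTAA) in 1.06%, and TAGGTCA or TGGGTCA in 6.45%. A match gives the letters only and no binding was measured. The entries of Clock, Dbp and Nr1d2 held none of these letters.

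The libraries held 18949106 to 26237825 counts, and no pair of libraries within a group was as alike as counting noise would make it (lowest chi-square 3.54 per degree of freedom). Fam20c, the targeted gene, had a level of 8.86, 10.3, 11.9, 9.09 and 11.2 CPM (reads of a gene relative to the library size as scaled by TMM) in controls 1 to 5 and of 6.65, 7.29, 7.11, 7.70 and 7.74 CPM in KO 1 to 5. These did not overlap, and the log2 fold change was -0.49 (adjusted p = 0.0137 by edgeR's quasi-likelihood test, Benjamini-Hochberg). The summed level of 10 adipocyte markers, among them Adipoq, Fabp4 and Plin1, was 40450 to 41890 CPM in the control and 41800 to 44410 CPM in the KO libraries, and 0 of the 10 passed the test. The cultures also held other cells. The summed level of 10 endothelial markers was 157.2 to 191.3 CPM in the control and 64.2 to 95.7 CPM in the KO libraries, and 9 of the 10 were lower in KO. The corresponding ranges for 10 macrophage markers overlapped, at 1457 to 2248 and 1286 to 2138 CPM, with 0 called. Lyz2, with a mean of 1116 CPM in control and 1161 CPM in KO, made up most of the macrophage sums. Fabp4, at 20810 and 22550 CPM, made up much of the adipocyte sums. Of 10 progenitor markers 2 were lower in KO, and of 8 pericyte and smooth muscle markers 6 were tested and 0 called. No marker on these lists was at 0 in all libraries. In bulk samples, fewer cells of a type and less RNA per cell cannot be told apart.

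None of the 10 clock genes passed the test between KO and control cultures, where 309 of the 14270 genes did, a background of 2.17%, made up of 1.86% lower and 0.308% higher in KO. All 10 log2 fold changes lay above 0 but were small, and those of Arntl and Cry2 lay below 0 when libraries were scaled by their totals alone, and 7 to 10 lay above 0 with 1 library left out. They ran from 0.001 for Cry2 to 0.19 for Nr1d1, with a median of 0.053 against -0.0008 over all genes tested. Their adjusted p-values (edgeR's quasi-likelihood test, Benjamini-Hochberg) ran from 0.381 to 0.999. Of all genes, 49.7% lay above 0. An unadjusted p under 0.05 was reached by Cry1 and Nr1d2, 2 of 10, where 11.9% of all genes reached it. For none of the 10 were the KO and control libraries free of overlap, as they were for 3.97% of all genes. With DESeq2's Wald test 0 of the 10 passed as well.

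**Figure D1:**
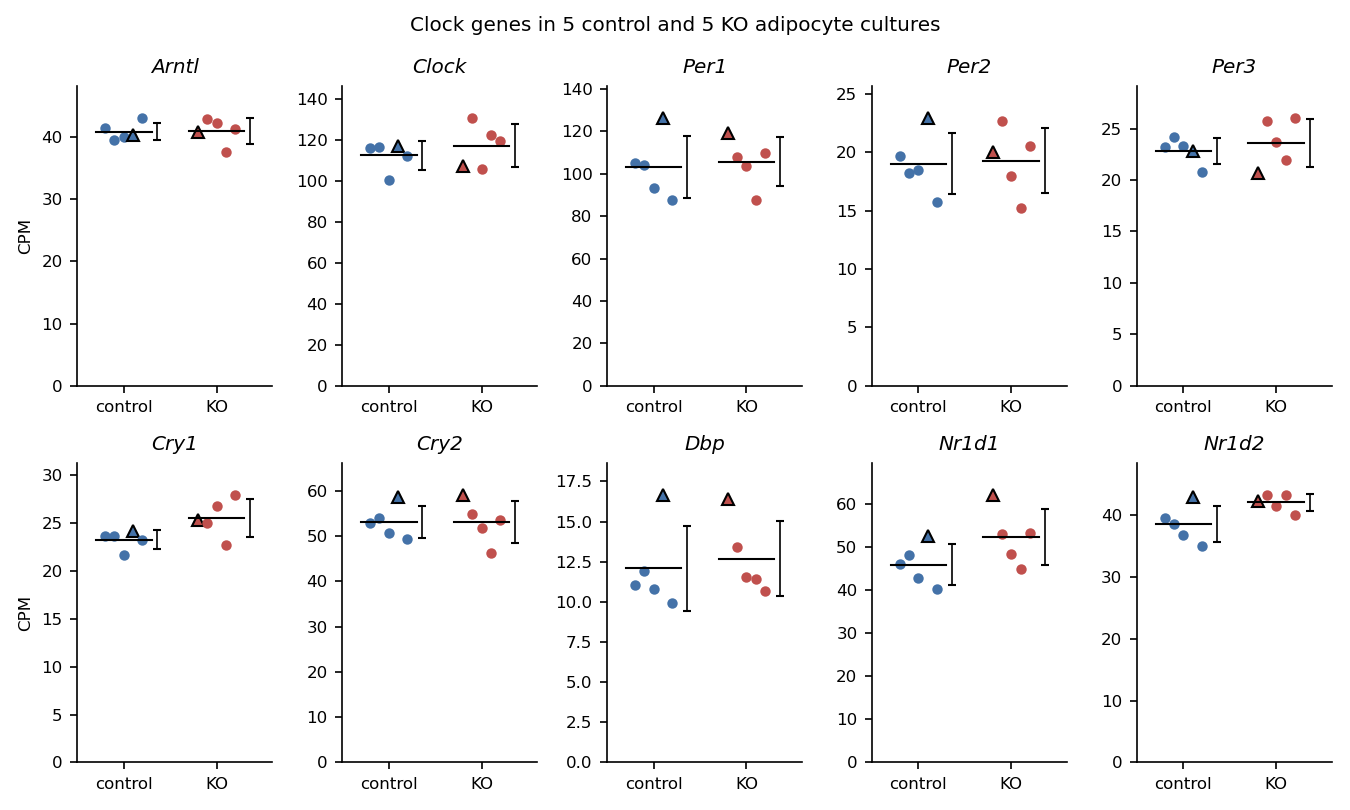
Level of each clock gene in CPM (vertical axes, each from 0) in the 5 control (blue) and 5 KO (red) cultures; points are libraries, lines group means and bars the SD (n = 5). Triangles mark control library 4 and KO library 1, which lie above the other 8 libraries for Per1, Cry2 and Dbp, while the groups overlap for all 10 genes.

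Of the positive limb, Arntl (ENSMUSG00000055116.9; chromosome 7, 113207465 to 113314126, plus strand in GENCODE M21 on GRCm38) had 41.4, 39.5, 39.9, 40.2 and 43.0 CPM in controls 1 to 5. Across KO 1 to 5 the values were 40.8, 42.9, 42.1, 37.5 and 41.2 CPM. KO library 4 lay below all control libraries, the other KO libraries lay inside the control range, and the means were 40.8 ± 1.41 and 40.9 ± 2.05 CPM (SD, n = 5). The log2 fold change of Arntl was 0.004 (95% interval -0.10 to 0.10, edgeR's quasi-likelihood fit), the narrowest interval of the 10. Clock (chromosome 5, 76209868 to 76304792, minus strand), the partner of Arntl, had 116, 116.4, 100.4, 117 and 112 CPM in controls 1 to 5. In KO 1 to 5 the level was 107, 131, 106, 122 and 119.6 CPM. Control library 3 was the lowest and KO library 2 the highest, and the log2 fold change of 0.06 had an interval of -0.08 to 0.20.

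Of the negative limb, Per1 (chromosome 11, 69095217 to 69109960, plus strand) had 105, 104, 93.3, 126 and 87.8 CPM in controls 1 to 5. The KO cultures 1 to 5 had 119, 108, 103, 87.4 and 109.9 CPM. The highest Per1 values were those of control library 4 and KO library 1, the lowest those of control library 5 and KO library 4, so that the spread lay within the groups. The means of Per1 were 103 ± 14.7 and 105.5 ± 11.6 CPM (SD, n = 5), and the log2 fold change was 0.03 (95% interval -0.18 to 0.24). Per2 (chromosome 1, 91415982 to 91459324, minus strand) had 19.7, 18.3, 18.4, 22.9 and 15.7 CPM in controls 1 to 5. Across KO 1 to 5 the values were 19.99, 22.7, 18.0, 15.2 and 20.6 CPM. Control library 5 and KO library 4 were again the lowest, and the log2 fold change of Per2 was 0.02 (95% interval -0.22 to 0.27). Per3 (chromosome 4, 151003652 to 151044665, minus strand), the PER paralog least needed for the loop, ran from 20.8 to 24.2 CPM in control and from 20.6 to 26.01 CPM in KO cultures, a log2 fold change of 0.05 (95% interval -0.11 to 0.20).

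Cry1 (chromosome 10, 85131700 to 85185064, minus strand), which encodes a strong repressor of the dimer, had 23.6, 23.7, 21.7, 24.2 and 23.3 CPM in controls 1 to 5. In KO 1 to 5 the level was 25.3, 25.0, 26.7, 22.7 and 28.0 CPM. All KO libraries but the fourth lay above all control libraries, and the means were 23.3 ± 0.954 and 25.5 ± 1.99 CPM (SD, n = 5). The log2 fold change of Cry1 was 0.13 (95% interval 0.002 to 0.26) and did not pass over all genes (adjusted p = 0.409 by edgeR's quasi-likelihood test, Benjamini-Hochberg). Cry2 (chromosome 2, 92403646 to 92434043, minus strand) had 52.9, 53.9, 50.6, 58.5 and 49.4 CPM in control and 59.1, 54.8, 51.8, 46.3 and 53.5 CPM in KO 1 to 5. The Cry2 means were 53.0 ± 3.52 and 53.1 ± 4.67 CPM (SD, n = 5), and the 95% interval of its log2 fold change was -0.14 to 0.14.

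Nr1d1 (chromosome 11, 98767932 to 98775333, minus strand) had the largest log2 fold change of the 10. It had 46.0, 48.1, 42.7, 52.6 and 40.2 CPM in controls 1 to 5 and 62.2, 53.0, 48.4, 44.99 and 53.2 CPM in KO 1 to 5. KO libraries 1, 2 and 5 lay above all control libraries, KO libraries 3 and 4 did not. The means of Nr1d1 were 45.9 ± 4.81 and 52.4 ± 6.46 CPM (SD, n = 5), and the log2 fold change was 0.19 (standard error 0.0889, 95% interval -0.004 to 0.38, adjusted p = 0.438 by edgeR's quasi-likelihood test, Benjamini-Hochberg). Nr1d2 (chromosome 14, 18204054 to 18239127, minus strand), which encodes the related receptor, had 39.5, 38.7, 36.9, 43.0 and 35.1 CPM in controls 1 to 5. The KO cultures 1 to 5 had 42.4, 43.3, 41.5, 43.4 and 40.1 CPM. Only control library 4 reached the KO range, and the means were 38.6 ± 2.97 and 42.1 ± 1.38 CPM (SD, n = 5). The log2 fold change of Nr1d2 was 0.13 (standard error 0.0548, 95% interval 0.007 to 0.24), with the lowest adjusted p of the 10 at 0.381 (edgeR's quasi-likelihood test, Benjamini-Hochberg).

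Dbp (chromosome 7, 45705088 to 45710203, plus strand), the output factor and the most variable member, had 11.1, 11.9, 10.8, 16.7 and 9.93 CPM in controls 1 to 5. Across KO 1 to 5 the values were 16.4, 13.4, 11.5, 11.4 and 10.7 CPM. Control library 4 and KO library 1 stood above all others, and the remaining libraries of both groups mixed. The means of Dbp were 12.1 ± 2.67 and 12.7 ± 2.32 CPM (SD, n = 5), and its log2 fold change of 0.07 had the widest interval of the 10, from -0.25 to 0.39.

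The upper ends of the 10 intervals lay between 0.10 for Arntl and 0.39 for Dbp and the lower ends between -0.25 for Dbp and 0.007 for Nr1d2, so that a difference of 2-fold (1 on the log2 scale) between the group means lay outside every interval. Exons of Arntl, Cry2, Dbp and Nr1d1 overlap exons of a gene on the opposite strand in GENCODE M21, namely Gm45355, D930015M05Rik, Sphk2 and Thra. The strand setting of the counting was not stated in the sources used here, so that counts of these pairs may be shared or lost. Thra (log2 fold change -0.02) and Sphk2 (0.002) did not pass the test.

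**Figure D2:**
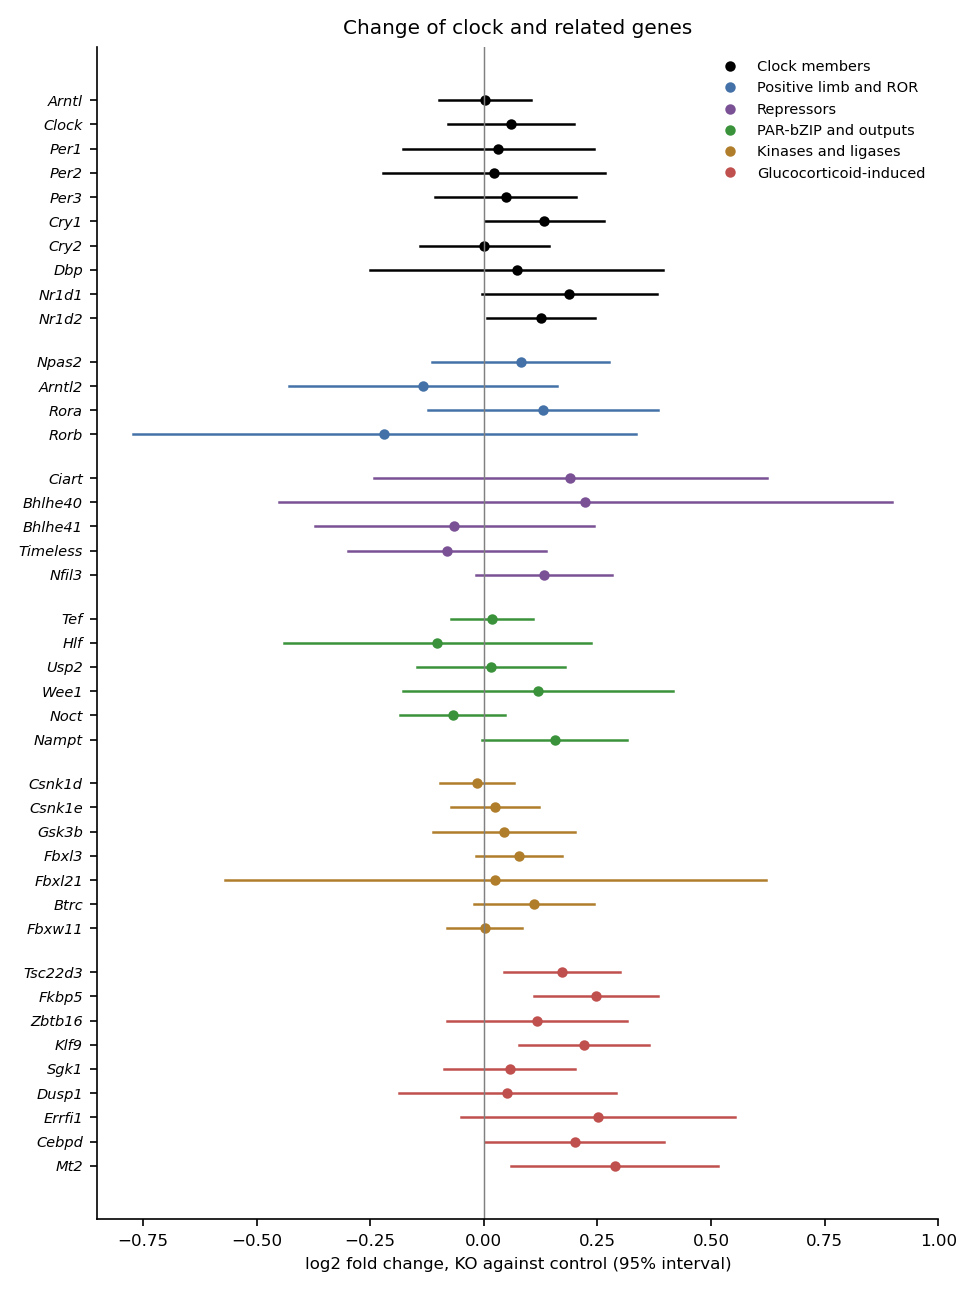
Log2 fold change of KO against control (horizontal axis; points, with 95% intervals from edgeR's quasi-likelihood fit as lines) for the 10 clock members, other clock genes in 4 lists and 9 other glucocorticoid-induced genes. The 10 clock members lie between 0.001 and 0.19, and no gene drawn passed the adjusted limit.

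The level of the members, compared per kilobase of annotated exon, fell into steps. In control cultures Per1 had 18.3 ± 2.61 and Nr1d1 14.9 ± 1.56 CPM per kilobase (SD, n = 5), with overlapping libraries. A large gap separated them from Cry2, Clock, Nr1d2 and Cry1, at 8.39 ± 0.558, 8.20 ± 0.510, 7.14 ± 0.549 and 6.97 ± 0.286 CPM per kilobase, where each gene overlapped its neighbour. Arntl, at 5.42 ± 0.187, lay below Cry1 without overlap, and overlapped Dbp at 4.04 ± 0.891, which in turn overlapped Per2 at 3.25 ± 0.448 CPM per kilobase. Per3 was the lowest at 2.38 ± 0.132, below Per2 without overlap. Among the 14096 tested genes with an exon length, Per1 stood at the 82.5th and Per3 at the 37.5th percentile of the control level. All members were thus well above the filter, with 210 counts or more in every library.

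The spread between cultures differed among the members. The highest of the 10 libraries exceeded the lowest 1.15-fold for Arntl and 1.68-fold for Dbp, with a median of 1.30-fold for the 10, against 1.36-fold over all genes tested. The SD of log2 CPM within groups was lowest for Arntl at 0.063 and highest for Dbp at 0.27, and the median of the 10 was 0.115 against 0.135 over all genes tested. The coefficient of variation of Dbp was 22.1% in the control and 18.3% in the KO cultures, while counting error alone would give 5.38% to 6.90% at its 210 to 345 counts. For Arntl the observed values were 3.45% in the control, within the 3.08% to 3.56% of counting error at its 790 to 1053 counts, and 5.02% in the KO cultures, above it.

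**Figure D3:**
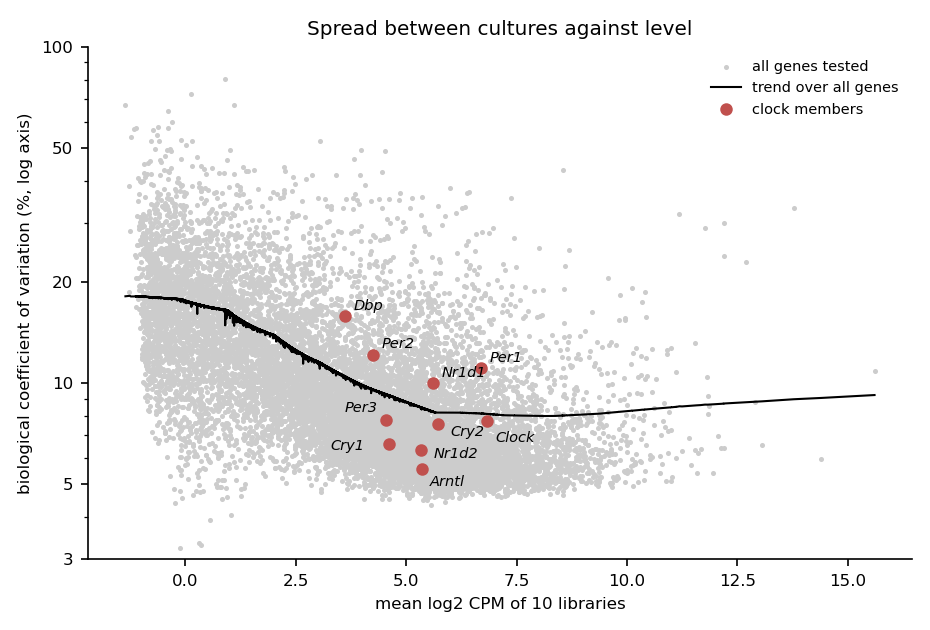
Biological coefficient of variation estimated by edgeR (vertical log axis, percent) against mean log2 CPM for all genes tested (grey), with the trend at each level (line) and the 10 clock members (red). Dbp, Per2, Per1 and Nr1d1 lie above the trend, and Arntl, at 5.54%, lies below it.

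Set against genes of like level through the dispersion trend of edgeR, Dbp, Per2, Per1 and Nr1d1 varied more than the trend and the other 6 members less, where 27.3% of all genes lay above it. The estimated biological coefficient of variation was 15.8% for Dbp against a trend of 10.4%, 12.2% for Per2 against 9.57%, 11.1% for Per1 against 8.13%, and 10.0% for Nr1d1 against 8.23%. It was 5.54% for Arntl against 8.47%, 6.35% for Nr1d2 against 8.48%, and 6.60% for Cry1 against 9.21%. Clock, Per3 and Cry2 also lay below the trend, at 7.72%, 7.76% and 7.58%. In edgeR each of these estimates is drawn toward the trend. That of Arntl, at 5.54%, exceeds its observed coefficient of variation of 3.45% in the control and 5.02% in the KO cultures.

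**Figure D4:**
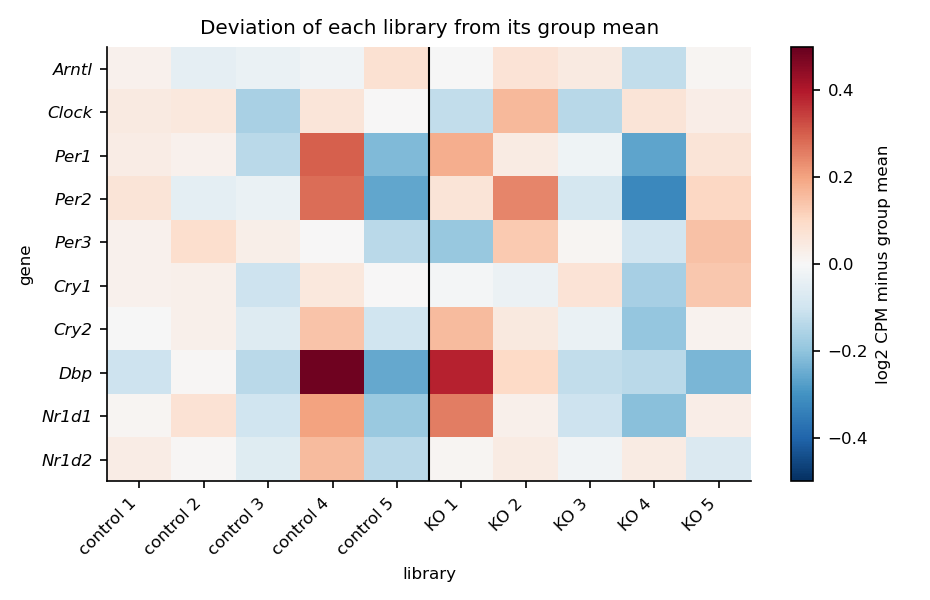
Deviation of each library (columns, controls left of the line) from the mean of its group in log2 CPM, for the 10 clock members (rows). Control library 4 and KO library 1 are red for Dbp, Per1, Cry2 and Nr1d1, control library 5 and KO library 4 are blue for them, and Arntl runs from -0.12 in KO library 4 to 0.075 in control library 5.

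The high values of several members came from the same libraries. Control library 4 and KO library 1 also lay apart from the other 8 on the leading principal component of all genes, which held 23.5% of the variance, so that their part in the clock genes was examined with and without them. Both lay above all other libraries for Dbp, with 16.7 and 16.4 CPM against 9.93 to 13.4 CPM. The same held for Per1, with 126 and 119 against 87.4 to 109.9 CPM, and for Cry2, with 58.5 and 59.1 against 46.3 to 54.8 CPM. For Arntl they lay inside the range of the others, at 40.2 and 40.8 against 37.5 to 43.0 CPM. The difference of Arntl and Dbp in log2 CPM, which is not corrected for length and can be read only between libraries, was 1.27 in control library 4 and 1.31 in KO library 1, against 1.67 to 2.10 in the other 8. Without these 2 libraries the within-group SD of Dbp fell from 0.27 to 0.12 log2 units, that of Nr1d1 from 0.163 to 0.115 and that of Per1 from 0.183 to 0.139, while that of Per2 went from 0.206 to 0.198. That of Arntl was higher without them, at 0.074 against 0.063, as was that of Cry1, at 0.106 against 0.091, and the median of the 10 members went from 0.115 to 0.109. One of the 2 is a control and the other a KO library, and without both, 0 of the 10 members passed.

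At the other end stood control library 5 and KO library 4, in which 1 of the 8 Per, Cry, Nr1d and Dbp genes lay above the mean of its group, as in control library 3. The number was 8 of 8 in control library 4, but 6 of 8 in KO library 1, as in control library 1 and KO library 5, and 7 of 8 in control library 2 and KO library 2. In control library 5 Arntl was highest of the controls at 43.0 CPM, while Per1, Per2, Per3, Cry2, Dbp, Nr1d1 and Nr1d2 were the lowest of the controls. In KO library 4 Arntl was lowest of all at 37.5 CPM together with low Per1, Per2, Cry2 and Nr1d1.

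Opposite movement of Arntl and the other members was tested across the 10 libraries, with each value taken as log2 CPM minus the mean of its group. None of the 9 relations passed in an exact permutation test within groups (all pairings, 2-sided, Benjamini-Hochberg over the 9). The coefficient of variation of Arntl was 3.45% in the control and 5.02% in the KO cultures, against a counting error of 3.08% to 3.56%. So small a spread weakens any r with Arntl, so that the test could miss opposite movement. For Arntl and Dbp, Pearson's r was -0.092 (exact permutation p = 0.777, adjusted 0.986) and Spearman's rho -0.152 (exact permutation p = 0.698, adjusted 0.974). The lowest r was that with Nr1d2, at -0.347 (exact permutation p = 0.274, adjusted 0.986; rho -0.358, exact p = 0.344), and the highest that with Cry1, at 0.541 (exact permutation p = 0.189, adjusted 0.986; rho 0.261, exact p = 0.51). The other 6 r values ran from 0.008 for Clock to 0.322 for Per2. Without control library 5 and KO library 4, which lay farthest from the median of Arntl, r became -0.171 with Dbp, 0.005 with Nr1d2 and 0.173 with Cry1. These r values kept the group means of all libraries, while those with 1 library left out took the means anew. The sign of most relations turned on KO library 4. Without it alone, r was -0.61 with Nr1d1, -0.511 with Cry2, -0.509 with Per1, -0.399 with Dbp and -0.319 with Per2, with an adjusted p of 0.672 each in the exact permutation test. Without control library 5 alone, r was 0.342, 0.538, 0.519, 0.101 and 0.73 for the same genes, and none passed.

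**Figure D5:**
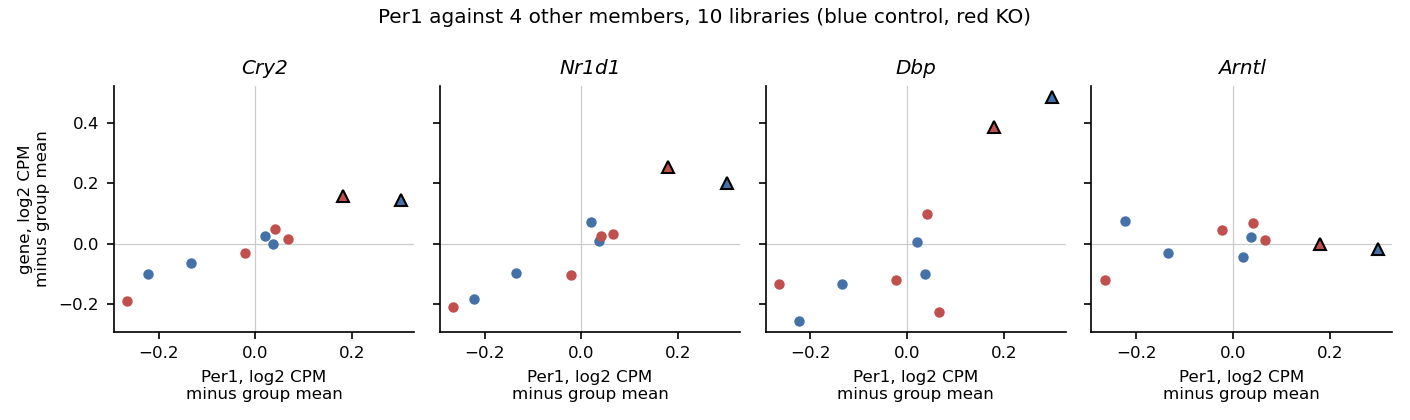
Log2 CPM minus the group mean of Cry2, Nr1d1, Dbp and Arntl (vertical axes) against that of Per1 (horizontal axes) in 10 libraries; triangles mark control library 4 and KO library 1. Cry2 (r = 0.956), Nr1d1 (0.938) and Dbp (0.80) are high where Per1 is high, and Arntl (0.177) is not.

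Among the other members, Per1, Cry2 and Nr1d1 were high and low in the same libraries. All 45 pairs of members were examined in the same way after their values were seen, and 41 had an r above 0, with a median of 0.398. The shares of all gene pairs with an r above 0, or past the limit, were not computed. A high r with Dbp was not confined to clock genes. By r with Dbp, Per1 ranked 558 at 0.80 among 11715 genes with a mean of at least 1 log2 CPM. Ranks by r with Per1, Cry2 or Nr1d1 were not computed. With Benjamini-Hochberg adjustment over the 45, 6 pairs passed in the exact permutation test within groups. The closest were Cry2 with Nr1d1 (r = 0.967, rho = 0.952, exact permutation p = 0.000278, adjusted 0.00625) and Per1 with Cry2 (r = 0.956, rho = 0.927, exact permutation p = 0.000278, adjusted 0.00625). Per1 with Nr1d1 had an r of 0.938 and a rho of 0.903 (exact permutation p = 0.000417, adjusted 0.00625). Without the 2 libraries farthest in the gene first named, and with the group means of all libraries kept, these r values were 0.965, 0.933 and 0.919. The other 3 pairs past the limit were Per1 with Per2 (r = 0.873), Dbp with Nr1d1 (0.84) and Cry2 with Dbp (0.816), each with an adjusted p of 0.038 in the exact permutation test. Per2 with Cry2 (r = 0.838), Per1 with Dbp (0.80), Per2 with Nr1d1 (0.775) and Per2 with Dbp (0.633) did not pass, with adjusted p-values of 0.0527, 0.0625, 0.0875 and 0.285 in the exact permutation test.

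In the 8 libraries apart from control library 4 and KO library 1, the r values of these 3 closest pairs of the 10-library test, in the order given, were 0.925, 0.958 and 0.949, with exact permutation p-values of 0.00347, 0.00694 and 0.00347 and adjusted values of 0.0625 each. No pair passed in these 8 libraries, where the smallest exact p is 0.00174 and 10 pairs had an unadjusted p under 0.05. The r of Dbp was lower there than in all 10, at 0.536 with Nr1d1, 0.489 with Cry2 and 0.426 with Per1. With Nr1d2 it was 0.712 against 0.749. Control library 4 and KO library 1 were the highest for Dbp, so that leaving them out narrows its range and can lower r. The differences in r were not tested. Per3 went the other way, with an r of 0.943 with Nr1d1, 0.898 with Per1 and 0.897 with Cry2 in the 8 libraries against 0.051, 0.207 and 0.102 in all 10. In control library 4 and KO library 1, Per3 was not high, at 22.8 and 20.6 CPM against 20.8 to 26.01 CPM in the others. All pairs share the same libraries and are not independent of each other.

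The genes whose library pattern was most like that of Dbp, by Pearson's r of group-centred log2 CPM over the 10 libraries among 11715 genes with a mean of at least 1 log2 CPM, were Nfx1 (0.979), Eif4a2 (0.973), the gene ENSMUSG00000121137 (0.968), Slc37a4 (0.966) and Srpk1 (0.962). The least like it were Sh3bp5l (-0.967), Glb1l (-0.964), Abcb9 (-0.957), Poldip2 (-0.956) and Shisa5 (-0.954). None of these is on the clock lists. Nr1d1 ranked 353, Cry2 468 and Per1 558 by this measure. The r of Per1 was 0.80, a size that many genes outside the clock lists reached, though most of the 11715 genes lay below it. The other members ranked lower, Nr1d2 853, Per2 1602, Cry1 5647, Clock 5701, Arntl 6671 and Per3 7395. Some genes of the further clock lists ranked ahead of these members, namely Nampt 44 (r = 0.921), Bhlhe40 51 (0.915), Nfil3 115 (0.894), Bhlhe41 139 (0.889) and Wee1 168 (0.881). Others of the same lists ran opposite to Dbp, among them Noct (-0.653), Usp2 (-0.598), Npas2 (-0.563) and Hlf (-0.362). The cell type markers were mixed. In the adipocyte list Adipoq stood at -0.868 and Lpl at -0.482, but Slc2a4 at 0.81 and Pparg at 0.772. In the progenitor list Ly6a stood at -0.953 and Cd34 at -0.407, but Col15a1 at 0.769 and Fn1 at 0.543. The part of these markers in the values of Dbp was not tested. In Nfx1, control library 4 had 77.0 and KO library 1 78.6 CPM against 61.8 to 73.8 CPM in the others.

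Of 24 further clock genes on 4 lists, 23 were found and tested, and 0 passed, with 16 log2 fold changes above 0, 7 below and a median of 0.025. In the list of the positive limb, Npas2, a paralog of Clock, had 18.3 ± 1.26 and 19.4 ± 2.68 CPM (log2 fold change 0.08), Arntl2 a log2 fold change of -0.13, Rora 0.13 and Rorb -0.22. Of the other repressors, Bhlhe40, which competes for E-boxes, had 37.5, 37.5, 38.4, 107.4 and 42.1 CPM in controls 1 to 5. In KO 1 to 5 the level was 100.4, 59.4, 49.7, 45.4 and 51.8 CPM. Control library 4 and KO library 1 were thus far above the other 8 for Bhlhe40 too, and its log2 fold change of 0.22 had a standard error of 0.311.

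Ciart, a repressor of the dimer, had a log2 fold change of 0.19 and Nfil3, which binds D-boxes in competition with DBP, one of 0.13, and neither passed. Among the outputs, Nampt, an E-box driven gene of NAD salvage, had a log2 fold change of 0.16 and Wee1, a cell cycle kinase, one of 0.12. Hlf and Tef, the PAR-bZIP relatives of Dbp, had -0.10 and 0.02. The 7 kinases and ubiquitin ligases found, which set the stability of PER and CRY proteins, had log2 fold changes between -0.01 for Csnk1d and 0.11 for Btrc, with a median of 0.025. Their median within-group SD was 0.059 log2 units, about as small as that of Arntl.

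Since dexamethasone resets the clock and Per1 responds to glucocorticoids, genes induced by glucocorticoids were set beside the members. Of this list of 10, which includes Per1, 0 passed, all 10 log2 fold changes were above 0 and the median was 0.19. An unadjusted p under 0.05 was reached by 5 of the 10, where 11.9% of all genes reached it. Fkbp5, a co-chaperone of the glucocorticoid receptor, had 577, 581.4, 467, 483 and 505 CPM in controls 1 to 5 and 596, 632, 653, 613 and 609 CPM in KO 1 to 5. The groups did not overlap, as held for 2 of the 10 genes and for 3.97% of all genes tested. The log2 fold change of Fkbp5 was 0.25 with a standard error of 0.063, which did not pass over all genes (adjusted p = 0.0728 by edgeR's quasi-likelihood test, Benjamini-Hochberg). Tsc22d3, also called GILZ, ran from 210.8 to 256.3 CPM in the control and from 263.3 to 302.8 CPM in the KO libraries, without overlap (log2 fold change 0.17, adjusted p = 0.215 by the same test). Klf9 and Mt2 had log2 fold changes of 0.22 and 0.29.

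Within groups, Fkbp5 and Tsc22d3 did not follow Dbp, with an r of -0.232 and -0.601, while Dusp1, Errfi1, Mt2 and Klf9 of the same list had 0.894, 0.874, 0.805 and 0.793. The list's summed level was 2364 to 3088 CPM in the control and 2990 to 3528 CPM in the KO libraries. Control library 4 was the highest of the controls and KO library 1 the highest of all. Mt2 made up much of these sums, with 1475 CPM in control library 4 and 1686 CPM in KO library 1. Dusp1, Errfi1, Cebpd, Mt2, Sgk1 and Per1 of this list were higher in both of these libraries than in all others. Fkbp5, Zbtb16, Klf9 and Tsc22d3 were not, and Tsc22d3 was lowest of all in control library 4, at 210.8 CPM. Of 9 immediate early genes, which respond to handling and to serum within minutes, 0 passed, and 6 log2 fold changes were above 0. An unadjusted p under 0.05 in edgeR's quasi-likelihood test was reached by 3 of the 9, against 11.9% of all genes. These were Egr1 (log2 fold change -0.24), Egr2 (-0.26) and Nr4a1 (0.25). The summed level of the 9 was highest in the same libraries, at 233.9 CPM in control library 4 and 237.8 CPM in KO library 1, against 179.6 to 203.4 CPM in the other 8. Not every gene followed, as Ier2 was lowest of all in control library 4, at 9.96 CPM. The part of these lists in the values of the clock genes was not tested.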

How the data were processed

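The authors made cDNA with a SMARTer v4 kit and libraries with Nextera XT, aligned the read pairs to GRCm38.p6 in STAR, and deposited counts of fragments per gene from featureCounts with an Ensembl annotation. The count values are not normalized, and each column holds 1 library. Per the labels the build was mm10. Of the 56748 gene identifiers, 52073 are in GENCODE M21, which gave positions and exon lengths, so that the annotation used for counting was another release. The number of columns of other samples was 0.

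Members and lists were chosen with earlier results of these data known. Low genes were dropped by filterByExpr (minimum count 10), libraries were scaled by TMM, and edgeR 4.0.16 (R 4.3.3) tested KO against control without pairing by the quasi-likelihood test, with Benjamini-Hochberg adjustment over 14270 genes and a limit of 0.05. Standard errors follow from the log2 fold change and the F statistic. Intervals are 95% intervals on the total (residual and prior) degrees of freedom of the quasi-likelihood fit. Log2 CPM used a prior count of 2. Correlations were tested by exact permutation of libraries within groups. Scripts were tested on simulated data.

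Genes named are the members, Fam20c, up to 3 genes per further list with the largest changes, and the 5 genes most and 5 least like Dbp. Thra, Sphk2 and the remaining genes of the lists were named after their values were seen. Alternatives were DESeq2 1.42.0, limma 3.58.1 with voom, other size factors and filters, a replicate block and libraries left out, and, added after the data were seen, the 45 pairs and the spread without control library 4 and KO library 1. The counting error given beside Dbp and Arntl follows from the square root of each gene's own lowest and highest count. One gene of the further lists is counted in their totals and not reported here.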

Additional observations from a re-analysis of the deposited data

Results flagged for a closer look

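In each group of 5, the gap of the highest or lowest library to the nearest other was divided by the range of the group, a ratio that exceeds 0.71 in 5% of groups by chance. Of 20 groups (10 clock genes in control and KO), 1 exceeded it, as chance gives. This was Clock in control library 3, at 100.4 CPM against 112 to 117 CPM in the other controls (ratio 0.714). Dbp in control library 4 and KO library 1, described above, stayed below the limit of this ratio.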

How the results depend on the processing

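None of the 10 clock genes passed in any of 19 settings, with a lowest adjusted p of 0.0849 (Nr1d2, over the tools and settings named in the methods), and none of the 9 relations with Arntl passed in any of 16. Scaled by library totals, the log2 fold change was -0.019 for Arntl and -0.021 for Cry2. For Cry2 it was -0.0016 with a filter of 1 CPM in 5 libraries and -0.0011 without control library 4 and KO library 1. Genes higher in KO numbered 125 with DESeq2, 111 with limma and 145 without those 2 libraries, against 44. Pairs of members past the limit numbered 6 with all libraries and 0 without them, where the smallest exact p is 0.00174 and r of Per1 with Cry2, Nr1d1 and Per2 was still 0.958, 0.949 and 0.868.

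With 1 library left out in turn, genes lower in KO numbered 164 to 323, genes higher 19 to 119, and the median log2 fold change of the 10 clock genes was 0.019 (without control library 5) to 0.11 (without control library 4). The log2 fold change ranged from -0.0080 to 0.033 for Arntl, -0.021 to 0.12 for Per1, -0.039 to 0.10 for Per2, -0.037 to 0.047 for Cry2 and -0.033 to 0.22 for Dbp. The r with Arntl ranged from -0.284 to 0.303 for Clock, -0.509 to 0.519 for Per1, -0.319 to 0.73 for Per2, -0.167 to 0.472 for Per3, -0.032 to 0.694 for Cry1, -0.511 to 0.538 for Cry2, -0.399 to 0.101 for Dbp and -0.61 to 0.342 for Nr1d1. The lowest value was that without KO library 4 for each of these but Clock. With the size factors of DESeq2, r with Clock was -0.011. The within-group SD of Dbp was 0.199 log2 units without control library 4 and 0.12 without KO library 1 as well. The cause of these shifts was not tested.

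Same-numbered libraries did not pair, with correlations of their deviations from -0.251 to 0.263, and 1 of 5 control libraries matched best with its own number. With a replicate block, 0 clock genes passed, 193 genes were lower and 21 higher in KO, the log2 fold change of Cry2 was -0.00051, and r with Arntl was 0.418 for Dbp and 0.591 for Nr1d2.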
